A study of Macaca mulatta with 21 samples.

Results

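The respiratory chain subunits described here are the 57 genes whose symbol on the rhesus array begins with the nuclear gene stems of complex I (NDUFA, NDUFB, NDUFC, NDUFS and NDUFV), complex II (SDHA to SDHD), complex III (UQCR), complex IV (COX4 to COX8 followed by A, B or C) or complex V (ATP5). They were taken from 14133 genes that had a probe set with a single gene symbol, and each gene was read by its brightest probe set over the 21 arrays. Complex I had 24 members, complex II had 3, complex III had 6, complex IV had 9 and complex V had 15. NDUFA4 and NDUFA4L2 carry complex I names but were placed with complex IV, where the NDUFA4 protein is now assigned; this placement was made for the present description. All 57 members were above the filter on low values. A further 3 probe sets that match the rule also name another gene and were left out.

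The inner mitochondrial membrane holds the respiratory chain. Complexes I and II pass electrons from NADH and succinate to ubiquinone, complex III passes them on to cytochrome c, complex IV hands them to oxygen, and complex V, the ATP synthase, uses the resulting proton gradient to make ATP. Pluripotent cells are known for a strong reliance on glycolysis, with a respiratory chain that is present but less used than in many somatic cells. The core subunits encoded in mitochondrial DNA lie outside the rule, and protein, enzyme activity and oxygen use were not measured.

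The cells are from rhesus macaques, and their messenger RNA was hybridised to Affymetrix arrays, 3 to each of the 7 lines, lettered A, B and C. Somatic cell nuclear transfer blastocysts gave the cloned embryonic stem cell lines, the male CRES-1 and the female CRES-3. Retroviral OCT4, SOX2, KLF4 and cMYC gave the induced pluripotent lines: the male RiPS1 from fibroblasts of a fetus, the female RiPS2 from a donor of 10 years, and RiPS3, also female, from a donor of 8 years. An IVF blastocyst gave ORMES23, a male embryonic stem cell line, and a skin biopsy of a female of 8 years gave the fibroblasts. Each line is a single derivation, so its 3 arrays measure the spread within that line and not between lines of its kind, and the fibroblasts stand for 1 animal. All the lines, fibroblasts included, were grown on inactivated mouse embryonic feeder cells, and pluripotent colonies were picked by hand. In such bulk RNA, fewer cells of a type and less RNA per cell cannot be told apart.

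Values are log2 intensities, so a difference of 1 is a 2-fold change. Array medians over all probe sets lay between 4.98 and 5.14. The number of arrays limits the precision. The mean of 8 pluripotency genes was 9.98 to 10.46 on the 18 pluripotent arrays and 4.67 to 5.07 on the fibroblast arrays, and 9 skin fibroblast genes averaged 6.24 to 7.32 on pluripotent arrays and 9.92 to 10.04 on fibroblast arrays. Both marker lists were thus high on average where the labels place them. Not every gene followed. In each pluripotent line 75% to 87.5% of the 8 pluripotency genes were higher than in fibroblasts and 12.5% were lower (limma adjusted p under 0.05). Of the 9 fibroblast genes, 77.8% to 88.9% were lower and 0% higher by the same rule. The fibroblast arrays differed from one another in dividing-cell genes. The mean of these 7 genes was 10.80 to 11.39 on pluripotent arrays, and 10.21, 7.85 and 9.10 on fibroblast arrays A, B and C. Members followed a like order more often than other genes did: 31 of 57 (54.4%) were highest on fibroblast array A, then C, then B, against 27.1% of the 11143 genes tested. The part of cell division in the differences from fibroblasts was not tested. Of the 200 member calls against fibroblasts described next, 39 were lost when 1 of the fibroblast arrays was left out; for the genes described one by one this is given beside the value.

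The first comparison asked how respiratory chain genes stood in each pluripotent line against the skin fibroblasts. They moved in both directions and mostly by little. Averaged over the 6 lines, 30 members were above and 27 below the fibroblasts, the median difference was 0.02, and 37 of 57 differed by less than 0.5 on the log2 scale. By the probe set used, the 5 differences of at least 1 were all lower in the pluripotent lines: NDUFA4L2, COX7A1, SDHA, ATP5MJ and COX8A. A gene is said to have passed when its limma p, adjusted by Benjamini-Hochberg over the 11143 genes tested, was under 0.05.

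By that rule 28 members passed in ORMES23, where 63.5% of all genes tested did. The count was 32 in CRES-1 (59.4% of all genes), 35 in CRES-3 (64.7%), 33 in RiPS1 (65.2%), 35 in RiPS2 (61.1%) and 37 in RiPS3 (63%). As shares of the 57 members these counts run from 49.1% in ORMES23 to 64.9% in RiPS3; they were below the share of all genes in ORMES23, CRES-1, CRES-3 and RiPS1. Split by direction, 10 members were higher and 18 lower in ORMES23 (34.3% and 29.2% of all genes), 14 and 18 in CRES-1 (32.2% and 27.2%), and 18 and 17 in CRES-3 (36.2% and 28.5%). In RiPS1 they numbered 17 higher and 16 lower (36% and 29.2% of all genes), in RiPS2 16 and 19 (33.8% and 27.2%), and in RiPS3 19 and 18 (35% and 28%). The share of members that passed as higher was under that of all genes in every line. The median difference over the members lay between -0.05 in RiPS2 and 0.07 in RiPS1, and that over all genes between 0.02 and 0.05.

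Members with a change of at least 2-fold were fewer: 8 in ORMES23, 6 in CRES-1, 5 in CRES-3, 7 in RiPS1, 6 in RiPS2 and 5 in RiPS3. Of all genes, 32.6%, 30.6%, 33.3%, 32.8%, 31.8% and 32.5% passed with a 2-fold change in these lines in the same order. Only 1 of these member results was an increase, that of ATP5IF1 in RiPS1.

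The 6 comparisons share the same 3 fibroblast arrays. Over them, 8 members (14%) passed as higher in all 6 lines, where 25.4% of all genes did, and 14 members (24.6%) passed as lower in all 6, where 19.6% of all genes did. A further 14 members passed as higher in 1 to 5 lines, 7 passed as lower in 1 to 5 lines, and none passed in both directions. The remaining 14 passed in no line, where 18% of all genes did. They were NDUFA6, NDUFA9, NDUFB2, NDUFB7, NDUFC1, NDUFS7, NDUFS8, NDUFV1, UQCRC1, UQCRFS1, COX6A2, ATP5MC3, ATP5PF and ATP5PO. On all 18 pluripotent arrays, 9 members were above all 3 fibroblast arrays (24.5% of all genes) and 14 were below them (19.1% of all genes). Without fibroblast array A, B or C in turn, the members higher in all 6 lines numbered 11, 8 and 7, and those lower in all 6 numbered 13, 12 and 12.

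**Figure D1:**
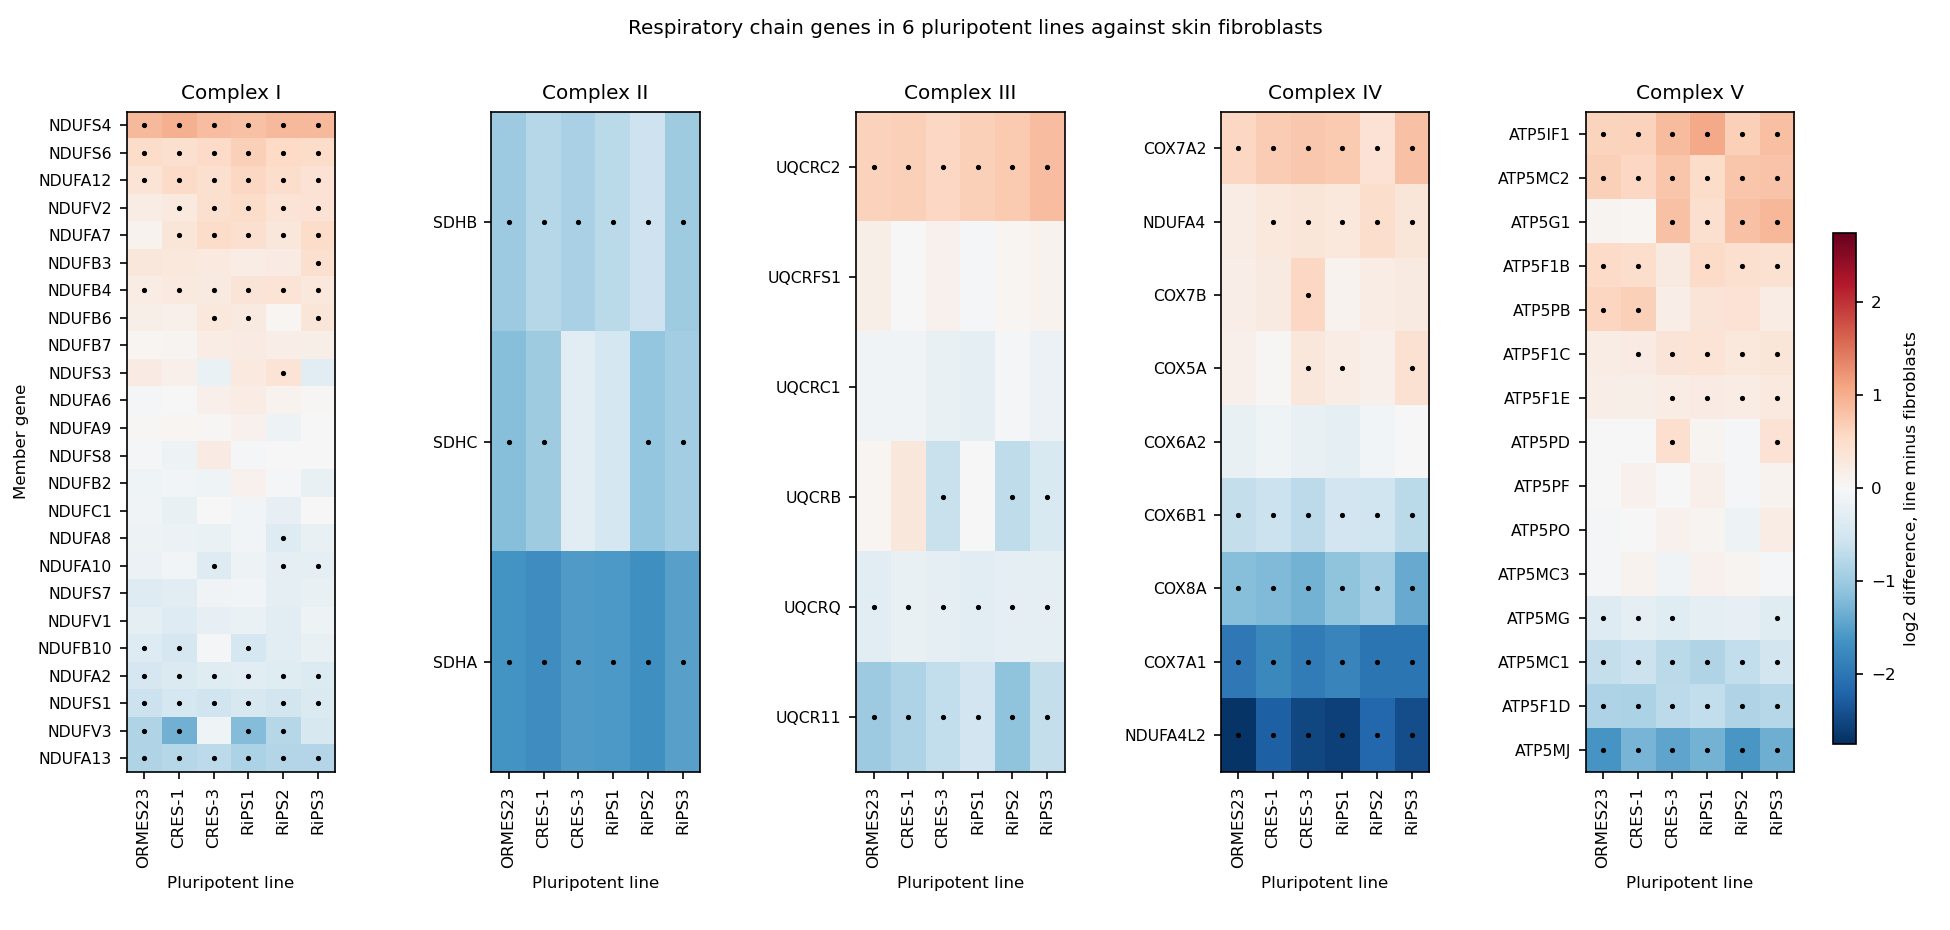
Colour gives the log2 difference of each pluripotent line (columns, left to right ORMES23, CRES-1, CRES-3, RiPS1, RiPS2 and RiPS3) minus the fibroblasts for the 57 members (rows), in 1 panel per complex, sorted by the mean difference. Dots mark members that passed the limma test in that line; most cells are pale, the 3 rows of complex II are all blue, and NDUFA4L2, COX7A1, SDHA, ATP5MJ and COX8A are the darkest rows.

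Complex II, succinate dehydrogenase, is also an enzyme of the tricarboxylic acid cycle, and all 3 of its measured subunits averaged lower in every pluripotent line, a difference that passed in all 6 lines for SDHA and SDHB and in 4 for SDHC. SDHA, the flavoprotein that oxidises succinate, read 8.94, 8.65 and 8.76 in ORMES23, 8.55, 8.65 and 8.98 in CRES-1, and 8.81, 8.98 and 8.85 in CRES-3. It read 8.86, 8.87 and 8.85 in RiPS1, 8.62, 8.93 and 8.73 in RiPS2, 8.83, 9.07 and 8.96 in RiPS3, and 10.61, 10.28 and 10.43 in fibroblasts. No pluripotent array came within 1 log2 unit of a fibroblast array. The differences ran from -1.71 to -1.48 (SE 0.13 each), or 2.80- to 3.28-fold lower, with limma adjusted p between 2.17e-09 and 1.36e-08.

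SDHB, the iron-sulphur subunit that carries the electrons onward, lay between 9.16 and 9.75 on pluripotent arrays and at 10.45, 10.03 and 10.31 on fibroblast arrays. Its groups did not overlap, and the difference passed in all 6 lines, from -1.002 in ORMES23 to -0.58 in RiPS2 (limma adjusted p 2.94e-07 to 1.55e-04). SDHC, one of the membrane anchors that bind ubiquinone, was more variable, at 7.81 to 9.24 on pluripotent arrays and at 9.60, 8.85 and 9.43 on fibroblast arrays. It passed as lower in 4 lines, with differences of -1.17 in ORMES23, -0.98 in CRES-1, -1.07 in RiPS2 and -0.96 in RiPS3. In CRES-3 and RiPS1 the differences were -0.31 and -0.49 (limma adjusted p = 0.296 and 0.0959). The mean of the 3 genes was 8.66 to 9.18 on the 18 pluripotent arrays and 10.22, 9.72 and 10.06 on fibroblast arrays A, B and C, so all the pluripotent arrays lay below all the fibroblast arrays.

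**Figure D2:**
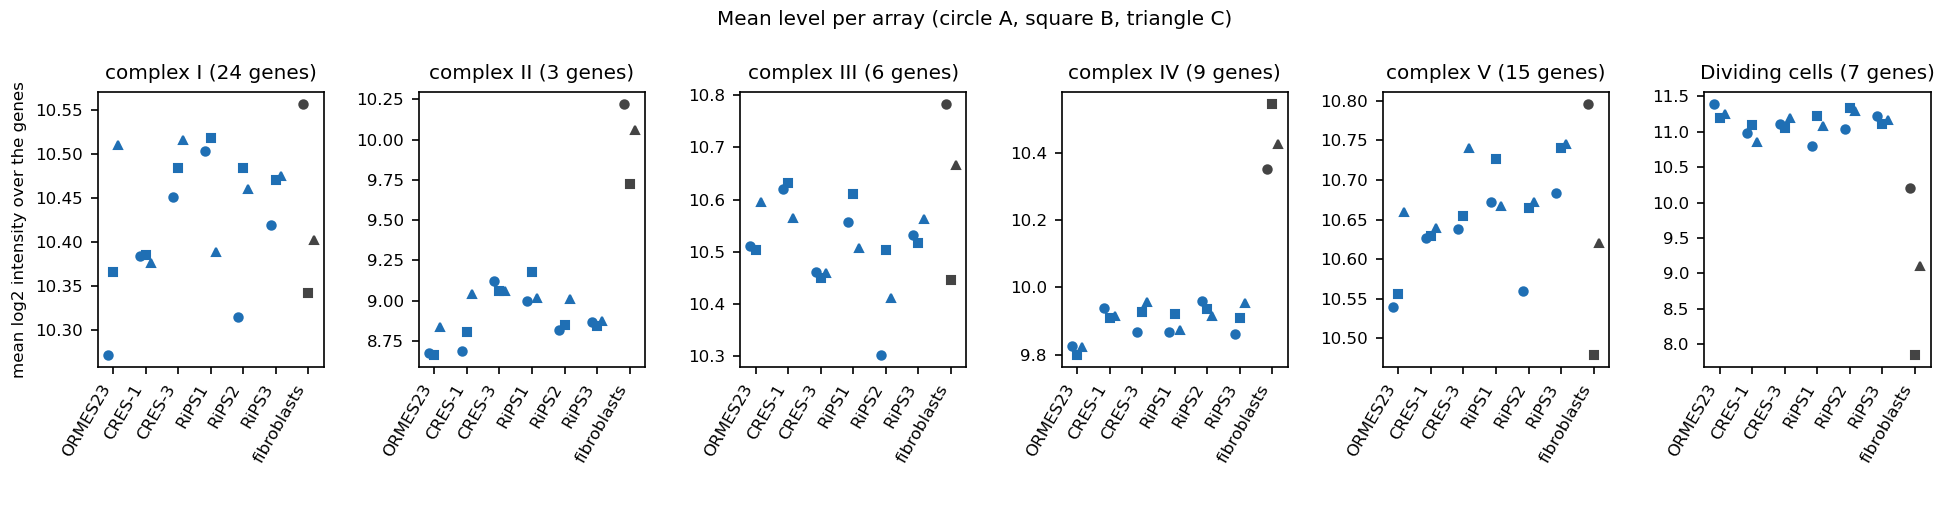
Each point is 1 array (circle A, square B, triangle C) and gives the mean log2 intensity over the members of a complex, with the pluripotent lines in blue and the fibroblasts in grey at the right. Complexes II and IV lie lower on every pluripotent array than on any fibroblast array, complexes I, III and V overlap, and the last panel shows the 7 dividing-cell genes, on which fibroblast arrays A, B and C differ. The complex IV mean includes NDUFA4L2 and COX7A1, whose mean differences were -2.44 and -1.91. Of the 9 complex IV members, 4 averaged above the fibroblasts and 5 below, so its level does not stand for every member.

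Complex IV, cytochrome c oxidase, held the members with the largest differences, among them genes that have a sister isoform. NDUFA4L2, a relative of NDUFA4 known as a hypoxia-induced gene, was low in every pluripotent line. It read 5.26, 5.32 and 5.40 in ORMES23, 6.09, 5.60 and 5.65 in CRES-1, and 5.32, 5.62 and 5.61 in CRES-3. It read 5.46, 5.66 and 5.24 in RiPS1, 6.07, 5.88 and 5.63 in RiPS2, 5.59, 5.39 and 5.75 in RiPS3, and 7.23, 8.93 and 7.91 in fibroblasts. The groups did not overlap, although the fibroblast arrays themselves spread over 1.70. The differences were -2.70 in ORMES23 to -2.16 in RiPS2 (SE 0.28), with limma adjusted p of 1.76e-07 to 2.73e-06. No fold is given, since the pluripotent values lie little above the array medians.

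NDUFA4 itself went the other way. It lay at 11.97 to 12.38 on pluripotent arrays and at 11.59, 12.07 and 11.90 on fibroblast arrays, which overlap. It passed as higher in 5 lines, all but ORMES23, with differences over the 6 lines of 0.21 to 0.48. Without fibroblast array A, the lowest, 4 of those 5 calls were lost (limma adjusted p 0.0767 to 0.179) and the RiPS2 call held.

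COX7A1, the isoform of subunit VIIa that is typical of heart and skeletal muscle, was lower by a like amount in every pluripotent line. It read 9.28, 8.69 and 8.88 in ORMES23, 9.24, 9.14 and 9.05 in CRES-1, and 8.94, 9.05 and 8.99 in CRES-3. It read 9.18, 9.03 and 9.05 in RiPS1, 8.88, 8.98 and 8.88 in RiPS2, 8.84, 9.0 and 8.88 in RiPS3, and 10.80, 10.97 and 10.97 in fibroblasts. The groups lay more than 1.5 log2 units apart. The differences ran from -2.01 in RiPS3 to -1.77 in CRES-1 (SE 0.12), 3.41- to 4.02-fold lower, with limma adjusted p of 1.34e-10 to 7.68e-10. The mean of 5 muscle marker genes was 5.21 to 6.52 on pluripotent arrays and 4.69 to 4.86 on fibroblast arrays. In fibroblasts 3 of these genes averaged under log2 5, near background, and their relation to COX7A1 was not tested.

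COX7A2, the isoform of the same subunit found in most tissues, was higher where COX7A1 was lower. It lay at 9.81 to 10.55 on pluripotent arrays and at 9.37, 9.50 and 9.47 on fibroblast arrays, with no overlap. It passed as higher in all 6 lines, by 0.40 in RiPS2 to 0.82 in RiPS3 (SE 0.13, limma adjusted p 2.07e-05 to 0.0101). A second, dimmer probe set of COX7A2 averaged 7.40 in pluripotent lines and 7.43 in fibroblasts, a difference of -0.02, and with the mean of both probe sets the call held in CRES-1 and CRES-3 alone.

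COX8A, a small subunit found in most tissues, was 10.33 to 11.25 on pluripotent arrays and 11.89, 11.83 and 11.82 on fibroblast arrays. It passed as lower in all 6 lines, from -1.39 in RiPS3 to -0.95 in RiPS2 (SE 0.18, limma adjusted p 2.24e-06 to 1.53e-04). COX6B1, which faces the intermembrane space, was also lower in all 6 lines, by values between -0.74 and -0.53, at 11.93 to 12.27 on pluripotent arrays and 12.67, 12.71 and 12.73 on fibroblast arrays. These 4 genes, NDUFA4L2, COX7A1, COX8A and COX6B1, were the members of complex IV lower in every line. They are 44.4% of its 9 members, where 19.6% of all genes passed as lower in all 6 lines. COX6A2, the muscle isoform of subunit VIa, passed in no line, with differences of -0.26 to -0.02.

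COX7B is the member on the X chromosome by the RefSeq gene table, in a series whose title concerns X-chromosome inactivation. It lay at 11.05 to 12.07 on pluripotent arrays and at 11.44, 10.94 and 11.23 on fibroblast arrays, and passed as higher in 1 line, CRES-3, with 11.63, 11.61 and 12.07 (difference 0.57, SE 0.14, limma adjusted p = 0.00222). Its means were 11.54 over the 3 female pluripotent lines and 11.37 over the 3 male ones, and their arrays overlapped.

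**Figure D3:**
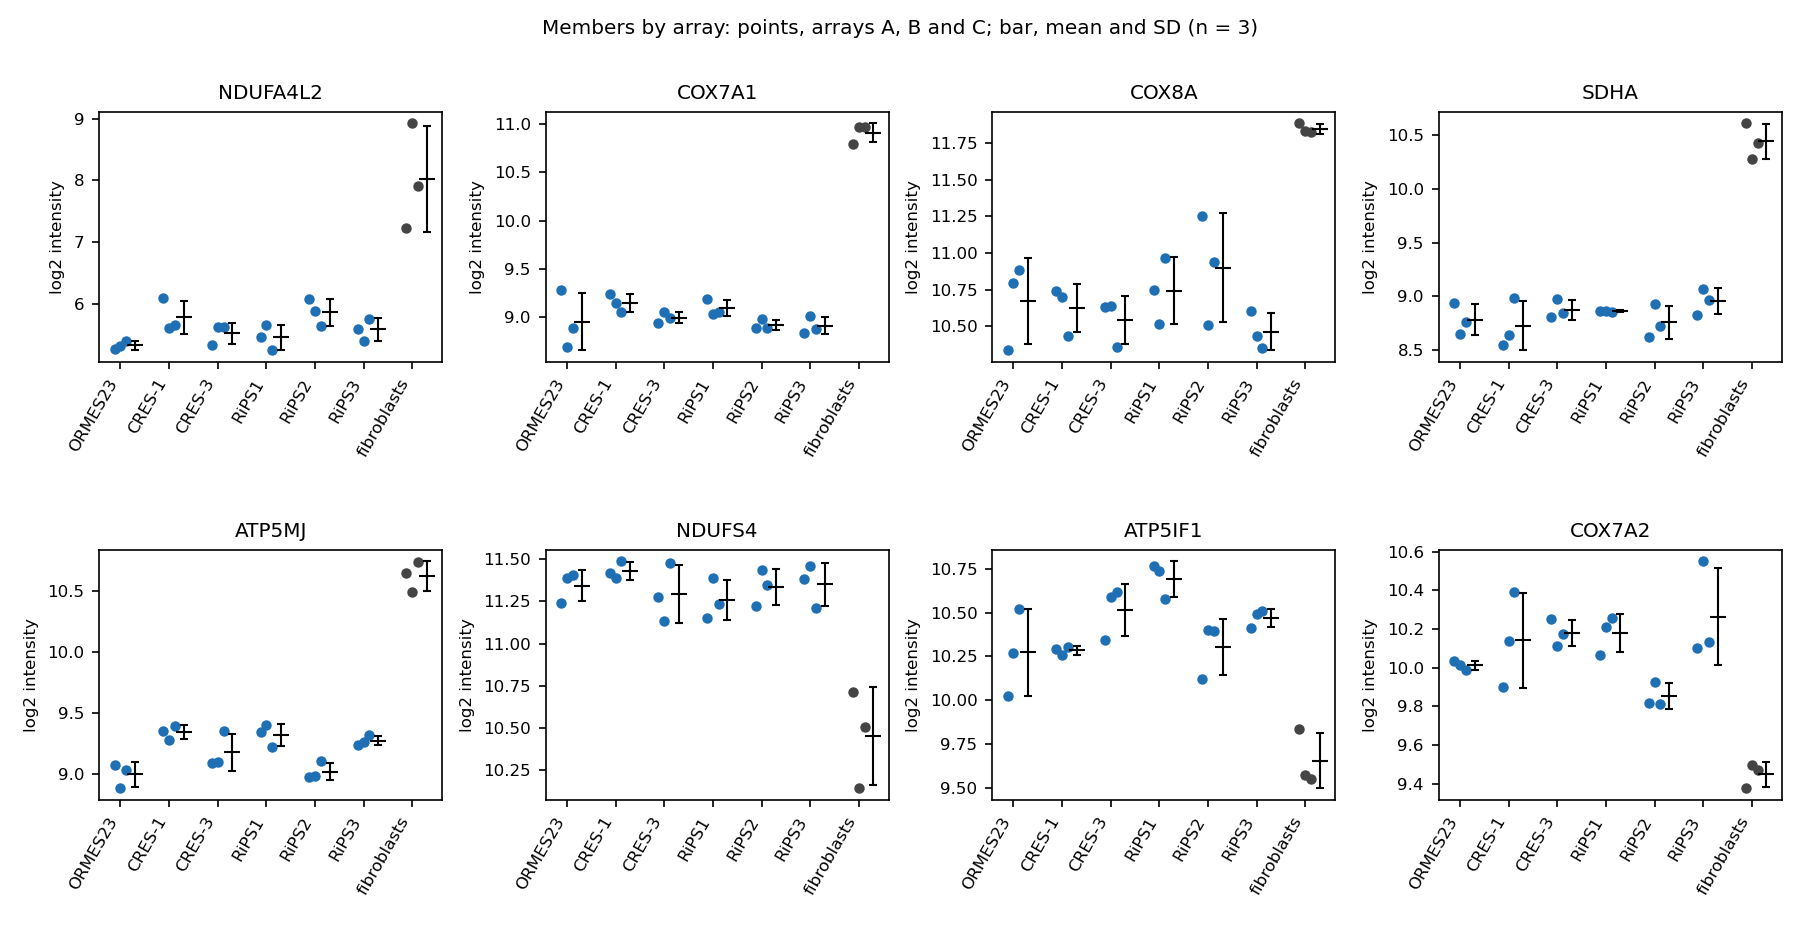
Points are the arrays A, B and C of each line on the log2 intensity scale and bars give the mean and SD (n = 3), with the fibroblasts at the right of each panel. In the first 5 panels (NDUFA4L2, COX7A1, COX8A, SDHA and ATP5MJ) every pluripotent array lies below every fibroblast array, and in the last 3 (NDUFS4, ATP5IF1 and COX7A2) every pluripotent array lies above them.

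Members of complex V, the ATP synthase, differed in both directions within the same part of the enzyme. Its 4 measured catalytic-head and central-stalk genes were ATP5F1B, ATP5F1C, ATP5F1D and ATP5F1E. ATP5F1D, the delta subunit of the central stalk, was lower in all 6 lines, at 10.36 to 10.78 on pluripotent arrays and 11.55, 11.19 and 11.30 on fibroblast arrays (differences -0.88 to -0.67, limma adjusted p 3.45e-06 to 6.29e-05). By the probe sets used, the other head and stalk genes lay on the opposite side. ATP5F1B, the catalytic beta subunit, passed as higher in 5 lines, all but CRES-3, with differences over the 6 lines of 0.24 to 0.53. Its fibroblast arrays read 11.84, 10.95 and 11.33, overlapping the pluripotent range of 11.53 to 11.96. Without fibroblast array B the ATP5F1B differences were 0.28 in CRES-1, 0.30 in ORMES23, 0.32 in RiPS1, 0.22 in RiPS2 and 0.21 in RiPS3, and the calls in CRES-1, RiPS2 and RiPS3 were lost. The RiPS3 call was also lost without array C, and all 5 were lost with only the arrays of the compared lines in the fit. ATP5F1C, the gamma subunit, passed as higher in 5 lines, with differences over the 6 lines of 0.20 to 0.38. ATP5F1E, the epsilon subunit, passed as higher in 4 lines, with differences over the 6 lines of 0.17 to 0.26. Leaving out 1 fibroblast array ended the ATP5F1C calls in CRES-1 and RiPS2 and the ATP5F1E calls in CRES-3 and RiPS2. Median centring ended all 4 ATP5F1E calls. A second, dimmer ATP5F1E probe set differed by -3.77 on average. With the mean of both, the differences in the 4 lines with a call were -1.92 to -1.77, so the direction of ATP5F1E depends on the probe set.

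ATP5MJ, a small protein of the membrane sector, was lower in all 6 lines. It read 9.08, 8.88 and 9.04 in ORMES23, 9.35, 9.28 and 9.40 in CRES-1, and 9.09, 9.10 and 9.35 in CRES-3. It read 9.34, 9.40 and 9.23 in RiPS1, 8.97, 8.99 and 9.11 in RiPS2, 9.24, 9.27 and 9.32 in RiPS3, and 10.65, 10.49 and 10.74 in fibroblasts. The groups lay more than 1 log2 unit apart. The differences were -1.62 in ORMES23 to -1.28 in CRES-1 (SE 0.10), or 2.43- to 3.08-fold lower, with limma adjusted p of 1.61e-10 to 4.11e-09. A second ATP5MJ probe set differed by -0.32 on average, and with the mean of both the differences were -1.01 to -0.78, with the call kept in all 6 lines.

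The proton-carrying c ring is encoded by 3 genes with one mature protein. ATP5MC1 was lower in all 6 lines (-0.82 to -0.51, limma adjusted p 1.96e-04 to 0.00959), at 9.46 to 10.00 on pluripotent arrays and 10.73, 9.97 and 10.19 on fibroblast arrays. In RiPS3 the call was lost without fibroblast array A, the highest (difference -0.29, limma adjusted p = 0.0699). ATP5MC2 was higher in all 6 lines (0.51 to 0.78, limma adjusted p 1.37e-06 to 1.41e-04), at 6.35 to 6.84 on pluripotent arrays and 6.11, 5.82 and 5.89 on fibroblast arrays. Its probe set is dim, and the fibroblast values lie little above the array medians. ATP5MC3 passed in none, with differences of -0.10 to 0.12.

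ATP5IF1, the inhibitor that stops the synthase from running backwards and breaking down ATP, was higher in every pluripotent line. It read 10.02, 10.27 and 10.52 in ORMES23, 10.29, 10.26 and 10.31 in CRES-1, and 10.34, 10.59 and 10.62 in CRES-3. It read 10.77, 10.73 and 10.58 in RiPS1, 10.12, 10.40 and 10.39 in RiPS2, 10.41, 10.49 and 10.51 in RiPS3, and 9.83, 9.57 and 9.55 in fibroblasts. The groups did not overlap. The differences were 0.62 in ORMES23 to 1.04 in RiPS1 (SE 0.13, limma adjusted p 1.23e-06 to 3.58e-04). A second probe set of the gene differed by 0.71 on average, beside 0.77 for the one used.

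Complex I had 24 measured members. Of these, 4 (16.7%) passed as higher in all 6 lines and 3 (12.5%) as lower in all 6, where 25.4% and 19.6% of all genes did. Another 8 passed in no line, as did 18% of all genes. By the probe set used, no complex I member averaged a difference of 1 or more. Another NDUFS7 probe set averaged 2.93, and others of NDUFA6 averaged -2.70 and -3.17. NDUFS4, an accessory subunit needed to complete the NADH-oxidising arm and a known Leigh syndrome gene, was the member with the largest increase. It read 11.24, 11.39 and 11.41 in ORMES23, 11.42, 11.39 and 11.49 in CRES-1, and 11.28, 11.13 and 11.48 in CRES-3. It read 11.15, 11.39 and 11.23 in RiPS1, 11.23, 11.44 and 11.35 in RiPS2, 11.38, 11.46 and 11.21 in RiPS3, and 10.71, 10.14 and 10.51 in fibroblasts. All the pluripotent arrays were above the fibroblast arrays, by 0.80 in RiPS1 to 0.98 in CRES-1 on the means (SE 0.13, limma adjusted p 4.68e-06 to 3.84e-05).

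The other members higher in all 6 lines were also accessory subunits: NDUFA12 (0.38 to 0.57), NDUFB4 (0.20 to 0.38) and NDUFS6 (0.44 to 0.66). For NDUFS6 the other 2 probe sets went the opposite way, with mean differences of -0.55 and -0.33, so its direction depends on the probe set. NDUFA13, an accessory subunit also known as GRIM-19, was lower in all 6 lines (-0.87 to -0.72), at 11.03 to 11.37 on pluripotent arrays and 11.85, 12.22 and 12.06 on fibroblast arrays. NDUFS1, a core subunit that binds iron-sulphur clusters, was lower in all 6 (-0.59 to -0.39), and so was NDUFA2 (-0.47 to -0.29). Leaving out 1 fibroblast array ended the NDUFB4 calls in ORMES23 and CRES-3 and the NDUFA2 calls in CRES-3, RiPS1 and RiPS2. Of the 6 measured core subunits, NDUFV2 passed as higher in 5 lines (0.26 to 0.50 there), NDUFS3 as higher in RiPS2 (a call lost without fibroblast array B or C, limma adjusted p = 0.169 and 0.0557), and NDUFS7, NDUFS8 and NDUFV1 in none. A second NDUFV2 probe set went the opposite way, by -0.23 on average, with the mean of both no NDUFV2 call held, and the call in CRES-1 was lost without fibroblast array B or C. The mean over complex I was 10.27 to 10.52 on pluripotent arrays and 10.56, 10.34 and 10.40 on fibroblast arrays, which overlap.

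Complex III had 6 measured members. UQCR11, a small subunit, was lower in all 6 lines, at 10.77 to 11.51 on pluripotent arrays and 11.89, 11.82 and 12.03 on fibroblast arrays (differences -1.12 to -0.52, limma adjusted p 2.81e-07 to 0.00107). UQCRQ, another small subunit, was lower by only 0.21 to 0.31 in log2, at 11.59 to 11.85 on pluripotent arrays and at 11.94 or more on every fibroblast array. With only the arrays of the compared lines in the fit, its call was lost in all 6 lines (limma adjusted p 0.0523 to 0.163), and in CRES-1 it was also lost without fibroblast array B or C (limma adjusted p = 0.0594 and 0.0853). UQCRC2, a core protein, passed as higher in all 6 lines (0.57 to 0.84, SE 0.20, limma adjusted p 0.00144 to 0.0195). Its fibroblast arrays read 10.22, 9.06 and 9.60, overlapping the pluripotent range of 9.94 to 10.64. Without fibroblast array B, the lowest, its call was lost in ORMES23, CRES-1, CRES-3 and RiPS1 (differences 0.28 to 0.38, limma adjusted p 0.0640 to 0.157). With only the arrays of the compared lines in the fit, the UQCRC2 call was lost in 5 lines, all but RiPS3. UQCRC1, its partner core protein, and UQCRFS1, the Rieske iron-sulphur protein, passed in no line.

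The next comparisons asked whether cloned and induced lines differed from the IVF-derived line ORMES23. Few members did, and none passed with a 2-fold change, which 0%, 0.996%, 2.4%, 0.458% and 0.763% of all genes did in CRES-1, CRES-3, RiPS1, RiPS2 and RiPS3. In CRES-1 against ORMES23 no member passed, where 0% of all genes did; by limma 1 member, ATP5MJ, had an unadjusted p under 0.05, as did 11.4% of all genes. In CRES-3 against ORMES23, 3 members passed, where 2.51% of all genes did: ATP5G1 and ATP5PD were higher and UQCRB was lower. In RiPS1 against ORMES23, 2 members passed, UQCR11 and ATP5IF1, both higher, where 8.34% of all genes did. In RiPS2 against ORMES23, 2 passed, ATP5G1 higher and UQCRB lower, where 0.942% of all genes did. In RiPS3 against ORMES23, ATP5G1 alone passed, as higher, where 1.95% of all genes did. The ORMES23 arrays were uneven in 5 early endoderm genes, whose mean was 9.22, 7.37 and 6.81 on arrays A, B and C. The SD of that mean was 1.26 in ORMES23 and 0.16 to 0.90 in the other pluripotent lines. Its part in these counts was not tested.

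The direct comparisons of cloned with induced lines of the same sex found no member that passed. The labels do not tie these lines to donors, so whether a pair shares a donor is not known here. No pairing by donor was used. In CRES-3 against RiPS3, both female, no member passed, where 0.0718% of all genes did, and 2 members, SDHC and COX7B, had an unadjusted limma p under 0.05, against 7.91% of all genes. In CRES-1 against RiPS1, both male, no member passed, where 7.15% of all genes did, and 4 had an unadjusted limma p under 0.05 (NDUFV2, UQCR11, ATP5G1 and ATP5IF1), against 22% of all genes. Arrays of CRES-1 and RiPS1 with the same letter deviated together, and with the letter as a block on these 6 arrays alone, still no member passed, where 8.67% of all genes did and 5.64% did without the block. With a 2-fold change, 0.0359% of all genes passed in the female pair and 2.14% in the male pair. The differences over the 57 members ran from -0.27 to 0.65 between CRES-3 and RiPS3 and from -0.48 to 0.33 between CRES-1 and RiPS1. A contrast of the 2 differences, chosen after seeing the data, passed for no member, while 543 of the 11143 genes tested passed. Its unadjusted limma p was under 0.05 for 3 members, and the share of all genes at that level was not counted.

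A moderated F test over all 6 pluripotent lines, which picks no pair, passed for 8 members (14%), where 17.1% of all genes passed. They were NDUFS3, NDUFV3, UQCR11, UQCRB, COX5A, ATP5G1, ATP5MJ and ATP5PD. NDUFV3, an accessory subunit of the NADH-oxidising arm, had the widest span of line means, 1.20, at low intensity. It read 7.0, 6.77 and 6.83 in CRES-3, 5.74, 5.84 and 5.45 in CRES-1, and 5.72, 5.91 and 5.75 in RiPS1. ORMES23 held both low and high arrays (5.51, 6.36 and 6.59), as did RiPS3 (7.09, 6.27 and 6.29), and RiPS2 read 6.16, 6.16 and 6.28. Fibroblasts read 7.21, 6.90 and 6.85, and the gene passed as lower in 4 of the 6 lines. A second, dimmer probe set showed a mean difference from fibroblasts of 0.03, beside -0.78 for the one used.

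UQCRB, a small subunit near the ubiquinone site of complex III, read 6.67, 6.34 and 6.70 in CRES-3, 6.22, 6.68 and 6.55 in RiPS2, and 6.89, 6.83 and 6.57 in RiPS3. It read 7.12, 7.37 and 7.06 in RiPS1, 7.58, 7.63 and 7.27 in CRES-1, 7.38, 7.19 and 7.15 in ORMES23, and 6.97, 7.18 and 7.38 in fibroblasts. The first 3 lines are female and the next 3 male, and their arrays did not overlap. The differences from ORMES23 were -0.67 in CRES-3 and -0.75 in RiPS2 (SE 0.15, limma adjusted p = 0.0271 and 0.0215), calls lost under 6 and 7 of 14 other settings. The other UQCRB probe sets overlapped between the sexes, and those above log2 5 averaged 0.64 and 0.57 above the fibroblasts, so the pattern rests on 1 probe set.

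The probe set labelled ATP5G1 split the lines the opposite way. It read 11.07, 10.95 and 11.28 in CRES-3, 11.04, 11.09 and 11.15 in RiPS2, and 11.22, 11.28 and 11.11 in RiPS3. It read 10.59, 10.92 and 10.71 in RiPS1, 10.24, 10.43 and 10.36 in CRES-1, 10.30, 10.47 and 10.37 in ORMES23, and 10.54, 10.05 and 10.28 in the female fibroblasts. The 9 arrays of the female pluripotent lines were above the 9 of the male ones, and the fibroblast arrays lay within the male range or below it. Against ORMES23 the differences were 0.72 in CRES-3, 0.71 in RiPS2 and 0.82 in RiPS3 (SE 0.13, limma adjusted p = 0.00508, 0.00829 and 0.00188). ATP5G1 is an older symbol of ATP5MC1, which has probe sets of its own that moved the other way against fibroblasts, and the gene ID of this label is absent from the RefSeq table used, so which gene it reads, and on which chromosome, is not known here.

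UQCRB and ATP5G1 were the only 2 of the 57 members (3.51%) with no overlap between the 9 female and 9 male pluripotent arrays, where 0.404% of all genes had none. This split was chosen after the values were seen, and with 3 lines a side, sex and the lines themselves cannot be told apart. It carries no test.

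The other members that varied are given gene by gene. ATP5PD, a stalk subunit of the ATP synthase, read 12.43, 12.38 and 12.42 in CRES-3 and 11.83, 11.88 and 12.08 in ORMES23 (difference 0.48, SE 0.11, limma adjusted p = 0.0330), a call lost under 5 of 14 other settings. RiPS3 had 2 arrays as high (12.50 and 12.51) and 1 lower (12.01). NDUFS3, a core subunit of complex I, was low in CRES-3 (10.40, 10.45 and 10.43) and RiPS3 (10.42, 10.28 and 10.31), and 10.67 to 11.06 on the arrays of the other 4 lines. Those ranges did not overlap, but this grouping of lines was made after the values were seen. The share of all genes that split this way was not counted, and the grouping carries no test.

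COX5A was highest in RiPS3 (12.10, 12.16 and 12.13) and CRES-3 (12.05, 11.99 and 12.02), and 11.65 to 11.94 in the other 4 lines. That is the same grouping, again made after the values were seen and not tested. UQCR11 was highest in RiPS1 (11.51, 11.36 and 11.31) and read 10.81, 10.85 and 11.05 in ORMES23 (difference 0.49, SE 0.12, limma adjusted p = 0.0163), a call lost under 5 of 14 other settings. ATP5IF1 differed between RiPS1 and ORMES23 by 0.42 (SE 0.13, limma adjusted p = 0.0482), a call lost under 10 of 14 other settings. ATP5MJ spanned 0.34 between its line means, 9.0 in ORMES23 and 9.34 in CRES-1.

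**Figure D4:**
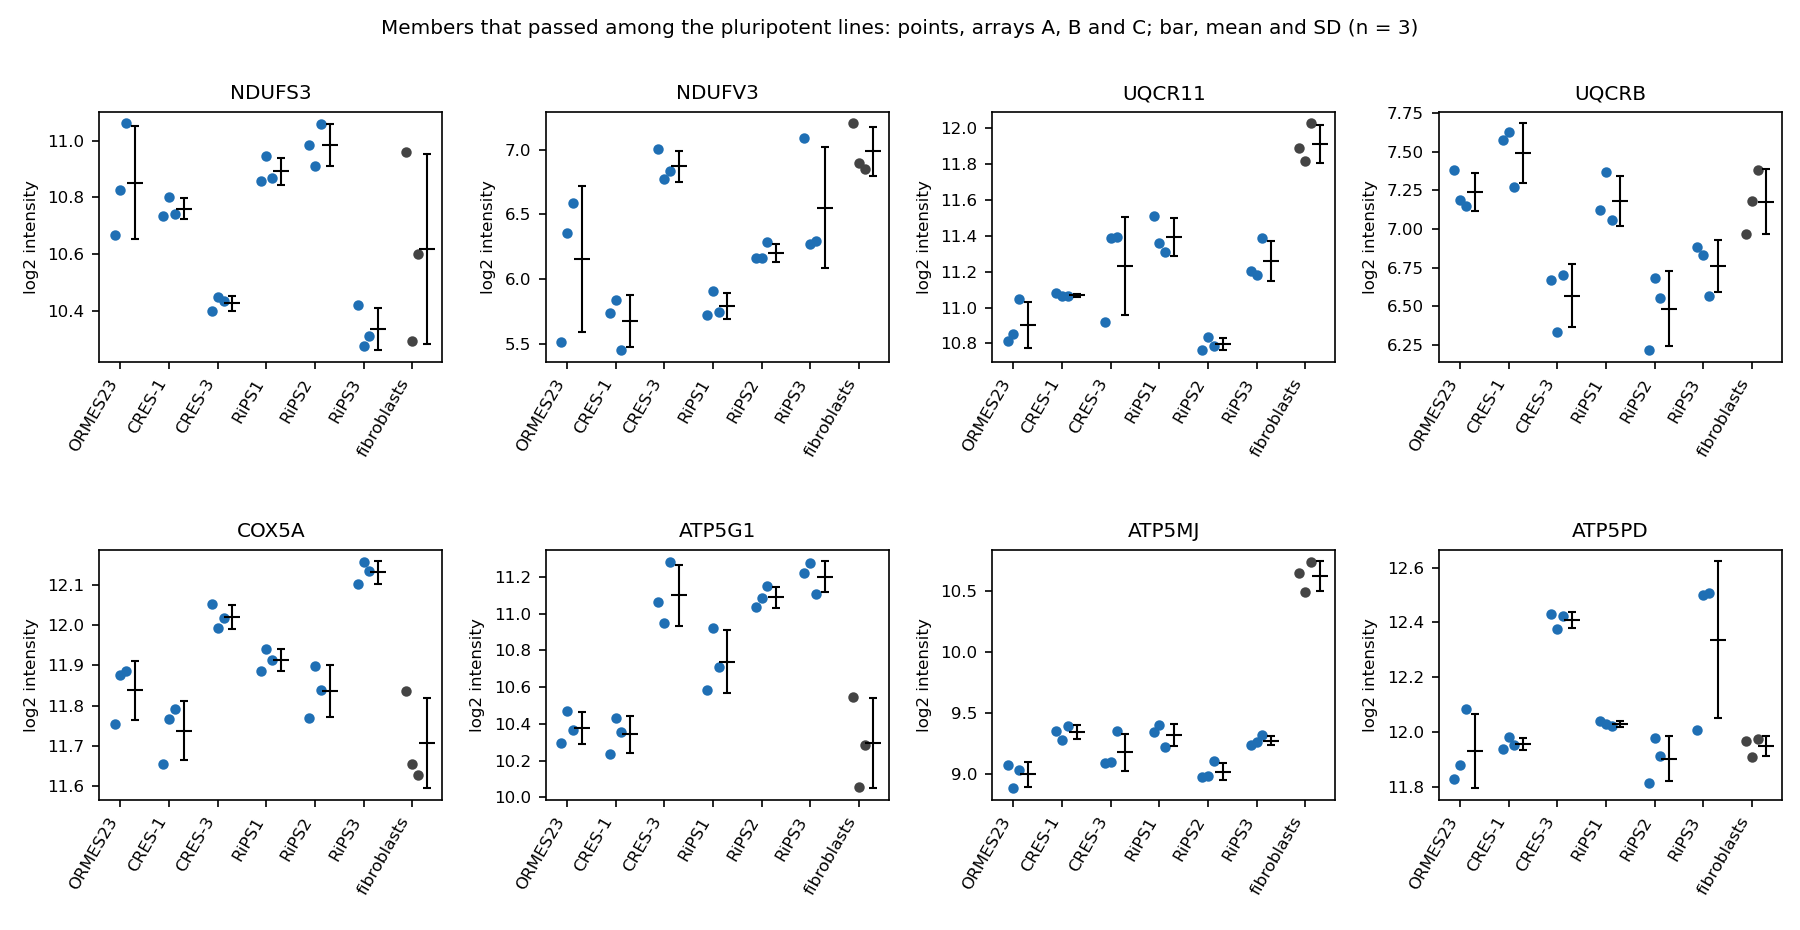
Points are arrays A, B and C of each line on the log2 intensity scale and bars give the mean and SD (n = 3), for the 8 members that passed the F test among pluripotent lines. CRES-3 and RiPS3 sit together in NDUFS3 (low) and COX5A (high), and CRES-3, RiPS2 and RiPS3, which are female, sit together in UQCRB (low) and ATP5G1 (high). Both groupings of lines were made after the values were seen and carry no test.

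Lists of genes that serve the respiratory chain without being part of it each held larger increases than any of the 57 members by the probe set used. Of 41 assembly factors tested, 11 to 21 passed as higher and 6 to 9 as lower in the 6 lines against fibroblasts, or 26.8% to 51.2% higher and 14.6% to 22% lower. Of all genes, 32.2% to 36.2% passed as higher and 27.2% to 29.2% as lower, so the list's share of higher genes spans that background. PET100, an assembly factor of complex IV, was higher by 1.77 to 2.26 and LRPPRC, which stabilises mitochondrial messenger RNA, by 1.35 to 1.71, while NDUFAF3, which builds complex I, differed by -2.10 to -1.45 and SURF1, a complex IV factor, by -1.53 to -1.29. Of 13 regulators tested, 6 to 9 passed as higher (46.2% to 69.2%) and 2 as lower (15.4%). TFAM, which packages and transcribes mitochondrial DNA, was higher by 1.80 to 2.19 and TWNK, its replicative helicase, by 1.08 to 1.56, while GABPB1, a subunit of a transcription factor of respiratory genes, and YY1 were higher by 0.58 to 1.01. EPAS1, the alpha subunit of hypoxia-inducible factor 2, named after its values were seen, was lower, with differences of -4.72 to -2.49. With the mean of all probe sets of a gene TFAM, SURF1, EPAS1, YY1 and GABPB1 kept their calls with differences over 1.5 times smaller in 3 or more lines.

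Of 62 mitochondrial ribosome genes, 21 to 27 passed as higher (33.9% to 43.5%) and 11 to 15 as lower (17.7% to 24.2%), with differences of 1.18 to 1.61 for MRPS22, MRPL1 and MRPS9. With the mean of its probe sets MRPS22 differed by 0.04 to 0.39 and its calls in RiPS1 and RiPS2 were lost. MRPL54 passed as higher in ORMES23, CRES-1 and RiPS2, by 0.94, 1.03 and 2.58. Of 9 tricarboxylic acid cycle genes, 2 to 5 passed as higher (22.2% to 55.6%) and 3 as lower (33.3%) in each line. CS, citrate synthase, was higher by 2.09 to 2.62, and SUCLG1 and IDH3G were lower, with differences between -1.30 and -0.74. SUCLA2 passed as higher in 3 lines, and its RiPS3 call was lost without fibroblast array B or C. Median differences over the 6 lines were 0.23 for assembly factors, 0.13 for the ribosome, 0.18 for the cycle and 0.43 for the regulators, beside 0.02 for the respiratory chain members.

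**Figure D5:**
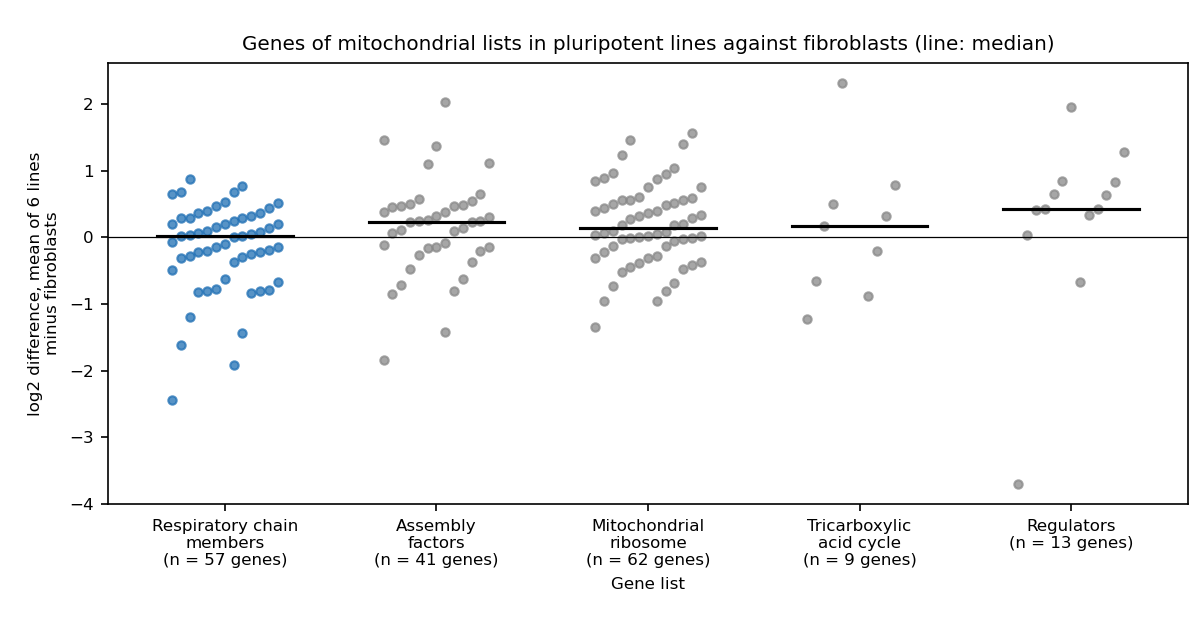
Each point is 1 gene and gives its log2 difference, mean of the 6 pluripotent lines minus fibroblasts, with a line at the median of each list. The 57 respiratory chain members lie between -2.44 and 0.88 around a median of 0.02, and the other lists reach above 1.5.

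Outside the rule, 2 further subunits were measured. CYC1, cytochrome c1 of complex III, passed in no line (differences -0.21 to -0.03). COX4I2, the lung and hypoxia isoform of complex IV subunit 4, averaged 7.01 in RiPS1, 5.28 to 5.63 in the other 5 pluripotent lines and 4.83 in fibroblasts. It was 1.67 higher in RiPS1 than in ORMES23 (SE 0.17, limma adjusted p = 1.32e-05) and 1.38 lower in CRES-1 than in RiPS1 (limma adjusted p = 8.08e-05). The fibroblast mean lies near background. The 5 muscle markers were also highest in RiPS1, at 6.04 to 6.52, and 5.21 to 5.78 on the other pluripotent arrays; their part in this result was not tested.

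Probe sets of the same gene did not always move together. Of 23 members with another probe set above log2 5 on average, 9 had one that went the opposite way from the one used, and 5 had one that differed from it by more than 1. NDUFS7 had a second probe set with a mean difference of 2.93, beside -0.21 for the one used. That second probe set was nearly as bright, at 10.22 over the 21 arrays beside 10.37. NDUFA6 had others at -2.70 and -3.17, beside 0.08, ATP5F1E had one at -3.77, beside 0.21, and NDUFS8 one at -0.09, beside 0.01. The opposite probe sets of NDUFS6, NDUFV2, NDUFV3, UQCRB and COX7A2 are given with those genes. The values for NDUFS7, NDUFA6 and ATP5F1E therefore hold for the probe set used and not for every transcript the label covers.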

How the data were processed

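The values analysed are log2 intensities per probe set, normalized with RMA by the authors per the submitters' processing notes; the RMA version is not given in the sources used here. RNA was labelled by the one-cycle method, per the labels' protocols. Of 52865 probe sets, 24969 had 1 gene symbol in the platform annotation, 361 had several and 27535 had none; only the first kind was used. Of the 57 members, 56 matched the RefSeq gene table. The 11143 genes that reached log2 5 on 3 arrays or more were tested with limma 3.58.1 in R 4.3.3, with 1 mean per line over all 21 arrays, 14 residual degrees of freedom and Benjamini-Hochberg adjustment over all genes tested. "Passed" means an adjusted p under 0.05. No block or covariate was used. The labels do not say that a letter marks a shared batch; in 1 of 21 pairs of lines, CRES-1 with RiPS1, deviations from the line means correlated over 0.1 for every letter (0.32 to 0.35). The same code was tested on simulated data. Members and gene lists were chosen with earlier results of these data known. The text names members, the 4 genes of each pathway list with the smallest F-test p over the 7 lines, and genes that passed between pluripotent lines; EPAS1 was named after its values were seen. The labels call arrays A, B and C biological replicates but do not say whether they came from separate cultures, so p-values measure only the spread between arrays. No 2 arrays held identical values. Alternatives covered the filter, the probe set, scaling, the arrays fitted, a replicate block, a 2-fold cut and leaving out each array. Sequences were not used here.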

Additional observations from a re-analysis of the deposited data

How the results depend on the processing

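Of 302 results of members and named genes against fibroblasts, 214 kept their direction and call under every alternative each was run in, 82 lost the call under at least 1, and 12 reversed under at least 1; of 17 between pluripotent lines, 8 kept the call and 9 lost it. All the reversals came with the mean of all probe sets of a gene: NDUFS6 at -0.21 in ORMES23, -0.21 in CRES-3, -0.20 in RiPS2 and -0.12 in RiPS3, UQCRB at 0.0929 in CRES-3, 0.0546 in RiPS2 and 0.0087 in RiPS3, ATP5G1 at -0.0527 in RiPS1, and ATP5F1E at -1.92 in CRES-3, -1.87 in RiPS1, -1.78 in RiPS2 and -1.77 in RiPS3, where other probe sets of these genes move the opposite way.

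Counts of members that passed in CRES-3, RiPS1, RiPS2 and RiPS3 against ORMES23, given as 3, 2, 2 and 1 in the text, moved as follows. Against ORMES23, RiPS1 gave 1 with no filter on low values, 1 with median centring, 1 with quantile normalization and 0 with the arrays of the compared lines alone; RiPS2 gave 0 with the compared lines alone; RiPS3 gave 2 with a filter at log2 6 and 2 with quantile normalization. With the mean of all probe sets the counts were 1, 0, 1 and 2, and 4 members passed among the 6 pluripotent lines. Fitted on their own arrays against fibroblasts, CRES-1 and RiPS3 gave 21 each. Fewer arrays set the spread there, and the fibroblast arrays weigh more in it. The SD of member deviations from the line mean was 0.23, 0.22 and 0.08 on fibroblast arrays A, B and C. On pluripotent arrays it was at most 0.15. What part the number of arrays and this spread had in the counts was not tested. With a 2-fold change as well, the counts against fibroblasts were 8 in ORMES23, 6 in CRES-1, 5 in CRES-3, 7 in RiPS1, 6 in RiPS2 and 5 in RiPS3, the counts in all 6 lines were 0 higher and 4 lower, and against ORMES23 they were 0 in CRES-3, 0 in RiPS1, 0 in RiPS2 and 0 in RiPS3.

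Leaving out 1 array gave 1 to 2 in CRES-3, 0 to 3 in RiPS1, 1 to 2 in RiPS2 and 1 to 3 in RiPS3 against ORMES23. The arrays that moved these counts by over 1.5 times were ORMES23 A, B and C, CRES-3 B, RiPS1 A and B, RiPS2 A and C, and RiPS3 A. Against fibroblasts the ranges were 26 to 30 in ORMES23, 27 to 33 in CRES-1, 32 to 36 in CRES-3, 29 to 36 in RiPS1, 32 to 36 in RiPS2 and 34 to 37 in RiPS3. The F test gave 6 to 9, members higher in all 6 lines 6 to 11 and members lower in all 6 lines 12 to 14. Over 63 same-letter pairs of arrays the correlation of deviations ran from -0.41 to 0.44 with a median of 0.01, and 20 pairs were over 0.1. CRES-1 with RiPS1 was the only pair of lines with all 3 over 0.1. Pairs with different letters were not compared, so whether a letter marks a shared batch was not tested. With a replicate block RiPS1 against ORMES23 gave 1 member instead of 2, and CRES-1 against RiPS1 gave 0 with or without it. Median centring, which moves RiPS1 by 0.14 and CRES-3 by 0.12 against the fibroblasts, turned the complex I level against fibroblasts from 0.04 to -0.11 in RiPS1, from 0.05 to -0.07 in CRES-3 and from 0.02 to -0.07 in RiPS3, and ended the NDUFA4 calls in these 3 lines. The counts over all 6 lines, the contrast between the cloned and induced pairs and the block on CRES-1 and RiPS1 alone were added after seeing the data. So were the description by sex and the grouping of CRES-3 with RiPS3. With so few arrays a line, small differences may go undetected, and values near log2 5, such as those of NDUFA4L2 in pluripotent lines, lie little above background.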
